A study of Danio rerio with 6 samples.

Results

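Transcripts of 4 macrophage marker genes were followed in single cells sorted from zebrafish larvae for mpeg1:mCherry fluorescence. The 4 genes were chosen by identifier from 25130 gene rows, and all 4 were present in each of the 6 libraries. They comprised the 2 more abundant rows named MPEG1 (ENSDARG00000055290 and ENSDARG00000043093), marco (ENSDARG00000059294) and an abundant row named MFAP4 (ENSDARG00000090783). The row that counts the transgene, mCherry_cds, was read beside them. The gene table gave both MPEG1 rows the same symbol, so they are called here the abundant copy (ENSDARG00000055290) and the sparse copy (ENSDARG00000043093). Which of them lends its promoter to the transgene was not settled from the files.

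The study concerned macrophages during the healing of trunk muscle after a needle puncture. All larvae were of the TL strain, carried Tg(mpeg1:mCherry) and were raised with the pigment blocker 1-phenyl-2-thiourea. Uninjured larvae were taken whole at 4 days after fertilisation (1 library, numbered replicate 2 in the labels). Injured larvae were punctured in the dorsal myotome at 4 days, and the dissected wound region was taken at 1, 2 or 3 days post injury (dpi), at ages of 5, 6 and 7 days (2, 1 and 2 libraries). Live single cells with mCherry fluorescence were placed in 384-well plates by sorting and read by SORT-seq, a plate form of CEL-Seq2 that tags every transcript with a molecular identifier and counts its 3' end. The labels give neither the number of larvae per library nor whether replicates came from separate animals, so p-values measure only the spread between these libraries, which may be technical.

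mpeg1 encodes perforin-2, a pore-forming protein of the perforin family through which phagocytes damage engulfed bacteria. Its promoter is the usual driver of macrophage reporters in zebrafish, including the one sorted on here. marco encodes a class A scavenger receptor with a collagen-like stalk, which binds bacteria and unopsonised particles at the macrophage surface. MFAP4 belongs to the fibrinogen-related glycoproteins. In mammals it is an extracellular protein of elastic fibres, whereas in zebrafish an mfap4 promoter is used, like that of mpeg1, to label macrophages. Granulocytes, the other phagocytes that enter a wound, are marked in zebrafish by npsn (nephrosin, a metalloprotease) and EPX (the name the gene table gives a granule peroxidase).

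A well counted as a cell from 500 transcripts on, which held for 1820 of 2304 wells, with 1362383 to 8340924 transcripts per library and median totals per cell of 3016 to 10897.5. Columns were numbered wells, and the same 384 well numbers recurred in every plate, so no barcode ties a cell of one library to a cell of another. The uninjured library stood apart: 18 wells over 50000 transcripts held 70.1% of its transcripts, against 1 such well (1.21%) in the 2 dpi library and 0 in the rest. The 9 skeletal muscle markers found in the gene table, of 18 looked for, summed in that library to 50175 CPM (counts scaled to a library sum of 1000000) and to 12.5 to 45.2 CPM in the injured ones. Of the labelled cell type, 25 or 26 of the 26 macrophage markers found in the table were detected in each library. All 8 granulocyte markers found in the table were also detected in each library, so detection does not test the label. Granulocyte wells, those with npsn plus EPX at 0.2% or more of the total, made up 5 of 341 wells in the uninjured library. At 1 dpi they were 29 of 299 and 21 of 209, at 2 dpi 68 of 364, and at 3 dpi 56 of 276 and 86 of 331, and these wells go against the macrophage label. Near the limit lay 41 wells between 0.1% and 0.2% and 23 between 0.2% and 0.5%, beside 265 granulocyte wells in all. Replicate 2 of 3 dpi held 18 and 12 of these wells. No doublet caller was run, so any wells that received more than 1 cell were not removed.

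The abundant MPEG1 copy was found in every library. Summed over all cells, it reached 136 CPM without injury, 437 and 553 at 1 dpi, 350 at 2 dpi, then 240 and 237 at 3 dpi. The order was therefore 1 dpi, 2 dpi, 3 dpi, uninjured, and the libraries of 1 and 3 dpi did not overlap. The last place of the uninjured library rests on its 18 wells over 50000 transcripts, since without them its level was 412 CPM, above the 2 and 3 dpi libraries. A positive cell typically held few molecules: the median over positive wells was 2 to 4, and the highest single well ranged from 15 in replicate 1 of 3 dpi to 47 at 2 dpi. The fitted log2 change from 1 to 3 dpi was -1.09 (SE 0.51), which did not pass (edgeR quasi-likelihood test, adjusted p = 0.156).

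The sparse MPEG1 copy held a small fraction of that level. Its CPM were 7.31 without injury, 12.5 and 28.9 at 1 dpi, 25.1 at 2 dpi, then 2.83 and 2.06 at 3 dpi. These rest on 61 transcripts uninjured, 17 and 50 at 1 dpi, 112 at 2 dpi and only 4 and 3 at 3 dpi. Per 100 transcripts of the abundant copy, the sparse copy gave 5.39 uninjured, 2.85 and 5.24 at 1 dpi, 7.16 at 2 dpi, then 1.18 and 0.870 at 3 dpi. Both 3 dpi libraries lay below all others on either scale. From 1 to 3 dpi its fitted log2 change was -3.10 (SE 0.88, edgeR adjusted p = 0.0190). With only 4 and 3 transcripts at 3 dpi, it passed the filter on low counts through the other libraries. Nothing is therefore read from that p-value. With 1 library left out at a time, the change ranged from -3.59 to -2.44. Where such a fit leaves 1 library at 1 or 3 dpi, calls shift over all genes and none is read. The call of the sparse copy was lost when wells were thinned to equal depth (edgeR adjusted p = 0.314). Reads of near-identical stretches could be assigned to either copy, so the split between them is uncertain to that extent.

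marco varied least among the injured libraries. Its CPM were 120 uninjured, 319 and 296 at 1 dpi, 311 at 2 dpi, then 268 and 215 at 3 dpi. The lowest 1 dpi library lay just above the highest 3 dpi library, and the log2 change was -0.37 (SE 0.50, edgeR adjusted p = 0.656). Positive wells held a median of 2 to 4 transcripts, and the highest single well ranged from 13 in replicate 2 of 3 dpi to 71 at 2 dpi.

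MFAP4 was the most abundant of the 4. It stood at 350 CPM uninjured, at 1220 and 1211 at 1 dpi, at 1163 at 2 dpi, and at 558 and 525 at 3 dpi. The 1 dpi replicates were nearly equal, the 2 dpi library lay close below them, and both 3 dpi libraries lay far below. Single wells held up to 141 transcripts in the uninjured library and up to 117 at 2 dpi. The log2 change from 1 to 3 dpi was -1.20 (SE 0.56, edgeR adjusted p = 0.150). With 1 library left out at a time, the change ranged from -1.50 to -0.94 for MFAP4 and from -1.35 to -0.86 for the abundant MPEG1 copy.

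The reporter transcript was scarce although every cell had been sorted for its protein. mCherry_cds reached 10.4 CPM uninjured, 87.3 and 107 at 1 dpi, 46.6 at 2 dpi, then 20.5 and 40.5 at 3 dpi. From 1 to 3 dpi it too fell, with a log2 change of -1.77 (SE 0.53, edgeR adjusted p = 0.0234). With 1 library left out at a time, the change ranged from -2.05 to -1.55. This call too was lost after thinning (edgeR adjusted p = 0.212). Per transcript of the abundant MPEG1 copy, the reporter gave 0.0769 uninjured, 0.1997 and 0.194 at 1 dpi, 0.133 at 2 dpi, then 0.0855 and 0.171 at 3 dpi.

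**Figure D1:**
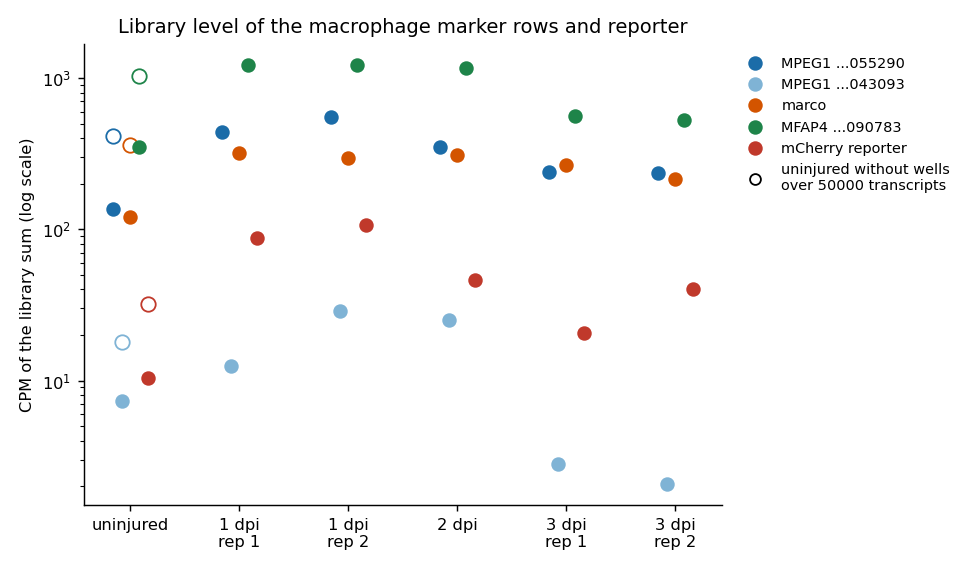
Level of the 4 marker rows and the reporter in each library, in CPM on a log axis; filled points are single libraries and open points are the uninjured library without its wells over 50000 transcripts. MFAP4 sits at 1163 to 1220 CPM in the 1 and 2 dpi libraries and at 525 and 558 at 3 dpi, and the sparse MPEG1 copy is lowest at 3 dpi, at 2.06 and 2.83.

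Read against all genes, 1 of the 4 marker genes was called between 3 and 1 dpi, the sparse MPEG1 copy. Of the 13901 tested genes 9.02% were called, 5.55% higher and 3.47% lower. As that copy passed the filter on low counts through libraries other than 3 dpi, nothing is read from this number. The median gene shifted by 0.28 on the log2 scale in this comparison, and all 4 marker genes had a negative change. Between 2 and 1 dpi none of the 4 was called, with 0.158% of genes called, and their log2 changes lay between -0.52 and 0.26. Unadjusted p-values under 0.05 were found for 509 genes there. Between 3 and 2 dpi none was called either, with 0.273% of genes called. The log2 changes were -3.36 for the sparse MPEG1 copy (edgeR adjusted p = 0.143), -1.11 for MFAP4, -0.57 for the abundant copy and -0.35 for marco. With 1 library left out at a time, the change of the sparse copy ranged from -3.84 to -2.94. The single 2 dpi library was taken to vary like the replicated groups in these fits. In sums over sorted cells, fewer cells of a type and less RNA per cell cannot be told apart. Granulocyte wells were also more frequent at 3 than at 1 dpi. Larvae were older at each later time after injury, and no uninjured library matched those ages. Age and time after injury therefore cannot be told apart in any comparison of these times. Without granulocyte wells the log2 changes from 1 to 3 dpi were -0.91 for the abundant copy, -2.89 for the sparse copy, -0.19 for marco and -1.03 for MFAP4.

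Injured and uninjured libraries differed less clearly than their CPM appear. Over the mean of the 3 injured groups, the log2 difference was 1.32 for the abundant MPEG1 copy, 0.53 for the sparse copy, 1.22 for marco and 1.36 for MFAP4, and none was called (edgeR adjusted p = 0.148, 0.810, 0.177 and 0.179), while 16.7% of genes were. The reporter was higher in injured libraries by 2.25 (adjusted p = 0.00785), where 2.31% of genes were called higher. These differences moved with the wells over 50000 transcripts of the single uninjured library. With those wells left out, uninjured levels became 412, 18.0, 364 and 1026 CPM for the 4 genes and 32.1 CPM for the reporter. The differences then turned to -0.12, -0.60, -0.21 and -0.03, and that of the reporter shrank to 0.80 (adjusted p = 0.978). With 1 injured library left out at a time, the difference ranged from 1.23 to 1.57 for the abundant copy and from -0.0781 to 0.86 for the sparse copy. It ranged from 1.08 to 1.52 for marco, from 1.18 to 1.63 for MFAP4 and from 2.25 to 2.34 for the reporter. The uninjured library also came from whole larvae and the injured ones from a dissected region, so injury, age and body region cannot be told apart.

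Depth differed between wells, and a transcript present in few copies is found more often in a deeper well. Among the injured wells outside the granulocyte set, 55.8% of the 86 wells with 500 to 1000 transcripts held at least 1 of the 4 marker genes. That share was 66.9% of 157 wells from 1000 to 2000, 83.9% of 330 from 2000 to 5000, 94.2% of 295 from 5000 to 10000, and 96.3% of 351 above. From the first bin to the last, the reporter was found in 4.65% and 49.0% of wells and the abundant MPEG1 copy in 15.1% and 85.8%. Shares were therefore taken after each well with at least 1000 transcripts had been thinned at random to 1000, which left 294 of 341 wells uninjured, 266 of 299 and 196 of 209 at 1 dpi, 352 of 364 at 2 dpi, and 251 of 276 and 300 of 331 at 3 dpi.

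At this equal depth the abundant MPEG1 copy was found in 30.6% of uninjured wells, in 31.6% and 34.7% at 1 dpi, 24.7% at 2 dpi, then 17.1% and 14.7% at 3 dpi. MFAP4 was found in 44.9%, in 51.1% and 54.1%, in 47.2%, and in 29.5% and 27.7% in the same order. For both genes the 3 dpi libraries lay below all others. marco was found in 23.1% of uninjured wells, in 27.1% and 22.4% at 1 dpi, 21.0% at 2 dpi, then 21.9% and 18.7% at 3 dpi, so all its libraries lay within a narrow band. The sparse MPEG1 copy was found in 2.04%, then 0.376% and 3.57%, then 2.56%, and at 3 dpi in 0 of 251 wells, which allows a share of up to 1.195%, and in 0.333%. The reporter transcript was found in 3.74%, in 9.02% and 6.63%, in 3.98%, and in 1.99% and 4.33%. Before thinning the abundant copy had been seen in 63.6%, 57.9%, 78.5%, 66.2%, 33.7% and 36.3% of wells and MFAP4 in 69.5%, 68.2%, 77.5%, 72.3%, 47.5% and 42.3%.

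From 1 to 3 dpi these shares differed by -17.2 percentage points for the abundant MPEG1 copy (pooled SD 1.99, n = 2 and 2, two-sided exact permutation p = 0.333) and by -24.0 points for MFAP4 (pooled SD 1.73, same exact p). Both differences were larger than the pooled SD, but that SD rests on 2 libraries per group and may be technical. For marco the difference was -4.47 points (pooled SD 2.82), for the sparse copy -1.81 (1.61) and for the reporter -4.66 (1.67). Leaving out 1 library at a time moved marco between -6.78 and -2.16 points and the sparse copy between -3.40 and -0.209. With 2 libraries against 2 the exact test cannot go below 0.333, so it could not have called any of them. Among wells outside the granulocyte set, the abundant copy was found in 36.3% ± 2.42 (SD, n = 2) at 1 dpi and 20.2% ± 2.02 at 3 dpi. MFAP4 was found there in 56.8% ± 1.80 and 36.2% ± 0.0143, and marco in 26.7% ± 2.99 and 25.6% ± 1.47. The gap in marco was then -1.10 points, within its replicate spread, while those of the abundant copy (-16.1) and MFAP4 (-20.7) were nearly as large as over all wells.

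Granulocyte wells held far fewer transcripts of the marker genes than the other wells of the same plates. Pooled over the 5 injured libraries at equal depth, 3 of 232 granulocyte wells (1.29%, 95% Wilson interval 0.441% to 3.73%) held the abundant MPEG1 copy, against 323 of 1133 other wells (28.5%). marco was found in 8 of 232 (3.45%) against 293 (25.9%), and MFAP4 in 8 of 232 (3.45%) against 557 (49.2%). The sparse copy was found in 0 of 232, which allows up to 1.29%, against 18 (1.59%), and the reporter in 1 (0.431%) against 68 (6.00%). Intervals and limits for a count of 0 cover counting error only.

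Library by library, the abundant copy was found at equal depth in 0 of 23 and 0 of 17 granulocyte wells at 1 dpi, 1 of 64 at 2 dpi, and 0 of 52 and 2 of 76 at 3 dpi. In the other wells its shares were 34.6% and 38.0%, 29.9%, and 21.6% and 18.8%. For MFAP4 the granulocyte shares were 4.35% and 11.8%, 1.56%, and 3.85% and 2.63%, against 55.6% and 58.1%, 57.3%, and 36.2% and 36.2%. For marco they were 8.70% and 0%, 4.69%, and 3.85% and 1.32%, against 28.8% and 24.6%, 24.7%, and 26.6% and 24.6%. In these injured libraries no granulocyte share reached the lowest share of other wells for any of these 3 genes. The 5 granulocyte wells of the uninjured library, 1 of them with the abundant copy, were too few to enter the tests.

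**Figure D2:**
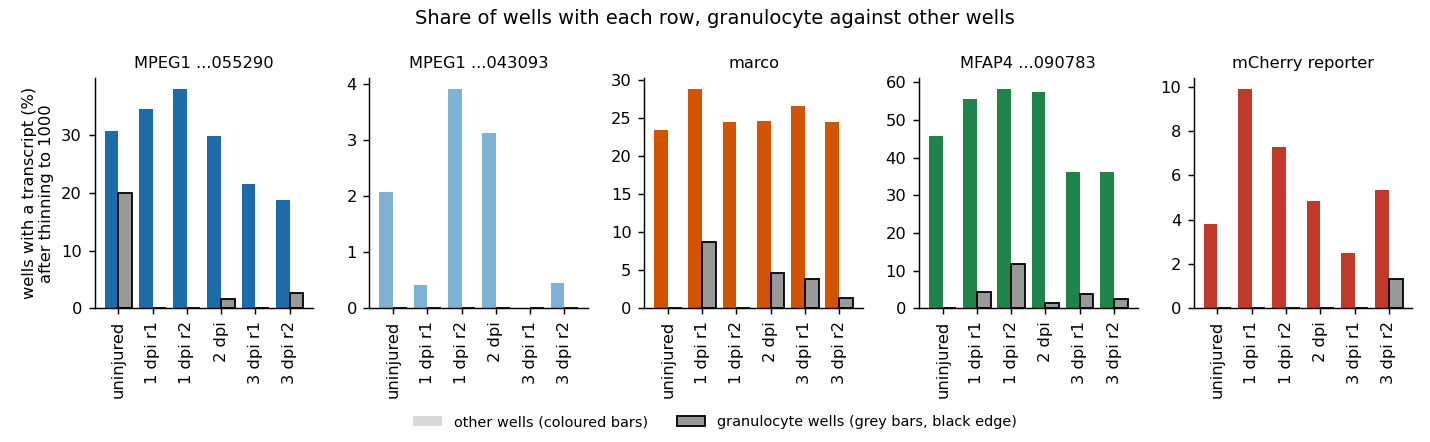
Percent of wells that hold at least 1 transcript of each row after thinning to 1000 transcripts, by library; coloured bars are wells outside the granulocyte set and grey bars are granulocyte wells (npsn plus EPX at 0.2% or more). The grey bar of the uninjured library stands for 5 wells; among injured libraries the tallest grey bar is 11.8% for MFAP4 at 1 dpi replicate 2, against 58.1% in the other wells.

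The mean difference over the 5 libraries was -27.7 points for the abundant copy (SD 9.01), -22.1 for marco (SD 2.03) and -43.8 for MFAP4 (SD 10.5). Each was negative in 5 of 5 libraries, for an exact permutation p of 0.0625, the smallest that 5 pairs can give, and 0.0781 after adjustment over the 5 rows. The sparse copy differed by -1.58 points (negative in 4 of 5, exact p = 0.125) and the reporter by -5.71 (5 of 5, exact p = 0.0625). Summed counts with the library as a block gave log2 differences of -4.73 for the abundant copy (SE 0.53, edgeR adjusted p = 7.35e-18), -3.39 for marco (SE 0.44, 1.27e-13) and -4.69 for MFAP4 (SE 0.36, 1.84e-36). Over all 1439 tested genes, 46.6% were called, 21.8% higher and 24.9% lower. These 3 of the 4 marker genes passed the filter on low counts through the other wells. The other wells held 464, 419 and 1177 of their transcripts at equal depth, against 3, 8 and 8 in granulocyte wells. Nothing is therefore read from their number or from these p-values. The sparse copy and the reporter did not pass that filter. With the gate widened to 0.1% the differences shrank to -3.37, -3.28 and -2.93. The wells between 0.1% and 0.2% therefore carried more of the abundant MPEG1 copy and of MFAP4 than the wells above 0.2%.

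At full depth some granulocyte wells did hold marker transcripts, always few. Of 260 injured granulocyte wells, 17 (6.54%) held the abundant copy, 25 (9.62%) marco and 50 (19.2%) MFAP4, with at most 3, 2 and 6 transcripts in any of them. The sparse copy was in 0 of 260, against 79 of 1219 other wells (6.48%). Its level was at least 8.04-fold lower when 3 counts are allowed over the group, and at equal depth at least 1.23-fold lower. These bounds cover counting error only, although a single well at 2 dpi held 18 transcripts. They also pool libraries, and at 3 dpi the other wells held only 4 and 3 transcripts of this copy. Median totals of granulocyte and other wells were 2050 and 3099.5 or 3164 and 8556 at 1 dpi, 8602.5 and 11874 at 2 dpi, and 3029 and 3498 or 3160.5 and 3934 at 3 dpi. In granulocyte wells MFAP4 gave 2.52 transcripts per transcript of the abundant MPEG1 copy, and in other wells 2.77. marco gave 1.16 and 0.795 per transcript, and the reporter 0.60 and 0.155. The values for granulocyte wells rest on 15 reporter transcripts and 25 of the abundant copy, and the difference was not tested. Whether free RNA, doublets or expression gave these few transcripts was not tested.

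Genes of the other lists were read in the same comparison. A gene that is high in one set of wells only passes the filter through that set, so these lists are given by single genes and not by counts. Of the 26 further macrophage markers in the files, 16 passed the filter, and the 4 with the smallest p, all lower in granulocyte wells, were the chemokines ccl35.2 (-4.89) and ccl34b.1 (-3.76), the cathepsin ctss2.2 (-3.31) and the goose-type lysozyme lygl1 (-3.07). Of the 10 scavenger and clearance receptors other than marco, 2 passed the filter, the mannose receptor mrc1b (-4.91) and the phosphatidylserine receptor havcr1 (-4.23). Among 5 tested transcription factors of macrophages, mafbb (-3.68) and CEBPA (-1.20) were lower, CEBPB (0.60) was higher, and 2 did not pass. Granulocyte markers outside the gate included the gelatinase MMP9 (5.34) and scpp8 (4.69), both higher.

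Wells were next counted by how many of the 4 marker genes they held at full depth. Outside the granulocyte set, at least 1 was found in 82.7% of uninjured wells, in 87.8% and 96.3% at 1 dpi, 93.2% at 2 dpi, then 75.0% and 76.3% at 3 dpi. At least 2 were found in 64.3%, in 68.1% and 80.3%, in 76.4%, and in 45.0% and 46.5%. Granulocyte wells held at least 1 in 20.7% and 19.0% at 1 dpi, 48.5% at 2 dpi, where wells were deepest, then 21.4% and 20.9% at 3 dpi. At equal depth the first set of shares became 66.4%, 76.5% and 77.7%, 71.2%, and 60.3% and 57.6%, again lowest at 3 dpi. Wells outside the gate with none of the 4 genes thus made up, at equal depth, 33.6% to 42.4% of the other wells in the uninjured and 3 dpi libraries and 22.3% to 28.8% in the rest.

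**Figure D3:**
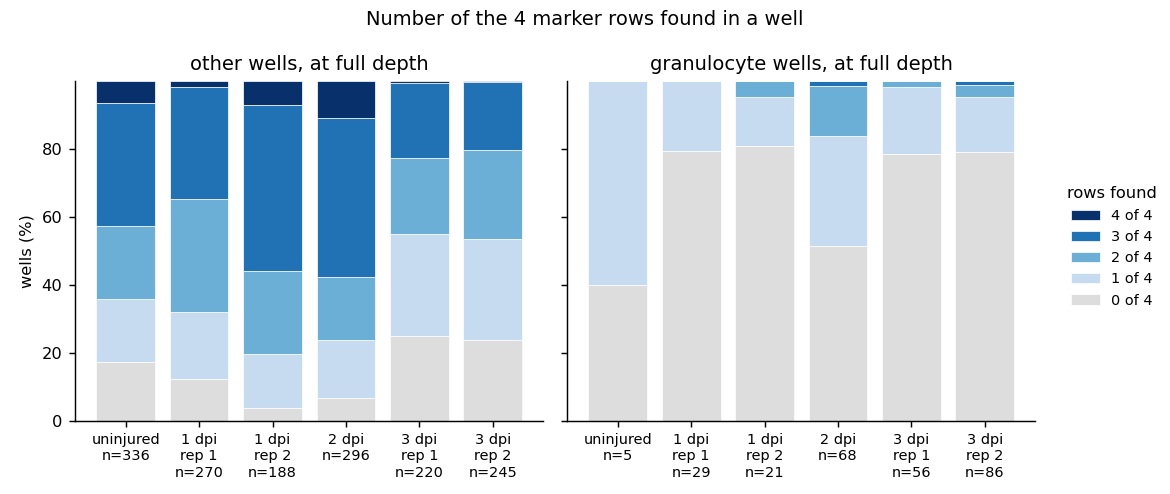
Percent of wells at full depth that hold 0 to 4 of the 4 marker rows, by library, for wells outside the granulocyte set (left) and granulocyte wells (right); n below each bar counts wells. In the left panel the share with none is 3.72% to 12.2% at 1 dpi and 23.7% to 25.0% at 3 dpi; in the right panel it is 51.5% at 2 dpi and 78.6% to 81.0% in the other injured libraries.

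The wells without a marker transcript after thinning were not empty of macrophage RNA. Many of them held a marker gene at full depth, so nothing is read from that RNA about cells that lack the markers. In replicate 2 of 1 dpi, 40 of 179 wells outside the gate had none after thinning and 7 of 188 at full depth. At 2 dpi these were 83 of 288 and 20 of 296. At equal depth their 26 macrophage markers summed to 6216 to 10351 CPM across libraries, against 11592 to 14815 in wells that held a marker gene and 2250 to 4000 in granulocyte wells. Keratinocyte markers summed to 8371 CPM uninjured and to 13367 and 3905 at 3 dpi in the wells without marker transcripts, against 2021, 2067 and 620 in those with them. At 1 dpi they summed to 1789 against 473 in replicate 1 and to 75 against 108 in replicate 2, the other way round, and at 2 dpi to 1060 against 254. In replicate 1 of 3 dpi 10.1% of such wells had keratinocyte markers at 5% or more of their transcripts, and in the others 0% to 3.16%. Of the list, 8 to 13 of 13 identifiers were detected in each library. Skeletal muscle markers summed to 24402 CPM in uninjured wells without a marker gene and to at most 88.6 in injured ones. Metaphocytes, epidermal cells of zebrafish that also carry mpeg1 reporters, had markers that summed to 2709 and 3400 CPM in the wells without marker transcripts at 3 dpi and to 1142 and 953 in those with them. They summed to 1959 against 786 uninjured, to 965 against 511 in replicate 1 of 1 dpi and to 458 against 39.0 at 2 dpi. In replicate 2 of 1 dpi they summed to 50 against 173, the other way round. Fibroblast markers summed to 1203 and 442 CPM at 3 dpi in the wells without marker transcripts, against 33.3 and 62.0 in those with them. The direction was the same at the earlier times. These sums were 4639 against 2271 uninjured and 373 against 39.0 at 2 dpi. At 1 dpi they were 52.6 against 5.38 and 25 against 14.4. The part of these other cell types in the lower marker shares at 3 dpi was not tested.

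How often the marker genes shared a well was set against independent placement within each library. At equal depth marco and MFAP4 shared 14.3% of uninjured wells, 17.7% and 13.8% at 1 dpi, 14.8% at 2 dpi, then 9.16% and 10.3% at 3 dpi. The excess over independence averaged 3.68 percentage points (SD 1.33, n = 6) for this pair, 2.85 (SD 1.72) for the abundant MPEG1 copy with MFAP4 and 1.92 (SD 1.19) for the abundant copy with marco. Each was positive in 6 of 6 libraries, with a two-sided exact permutation p of 0.0312, the smallest that 6 libraries can give, and 0.104 after adjustment over 10 pairs, so none passed. Leaving out granulocyte wells brought the excess to 2.97, 1.80 and 1.45 points, and the abundant copy with marco was then positive in 5 of 6 libraries, with -0.586 points in replicate 2 of 3 dpi.

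The mean excess of the reporter was 0.48 points with the abundant MPEG1 copy (5 of 6 libraries, exact p = 0.156), 0.20 with marco (exact p = 0.281) and 0.17 with MFAP4 (exact p = 0.50). The sparse MPEG1 copy gave 0.02 points with the abundant copy (exact p = 0.875), 0.32 with MFAP4 (exact p = 0.250) and -0.01 with marco (exact p = 1.00). It shared 0 wells with the reporter at equal depth, where independence gave 0.0772% on average. At full depth all 10 pairs exceeded independence in 6 of 6 libraries (adjusted exact p = 0.0312), by 0.99 to 9.0 points, and wells with a given gene were also deeper.

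**Figure D4:**
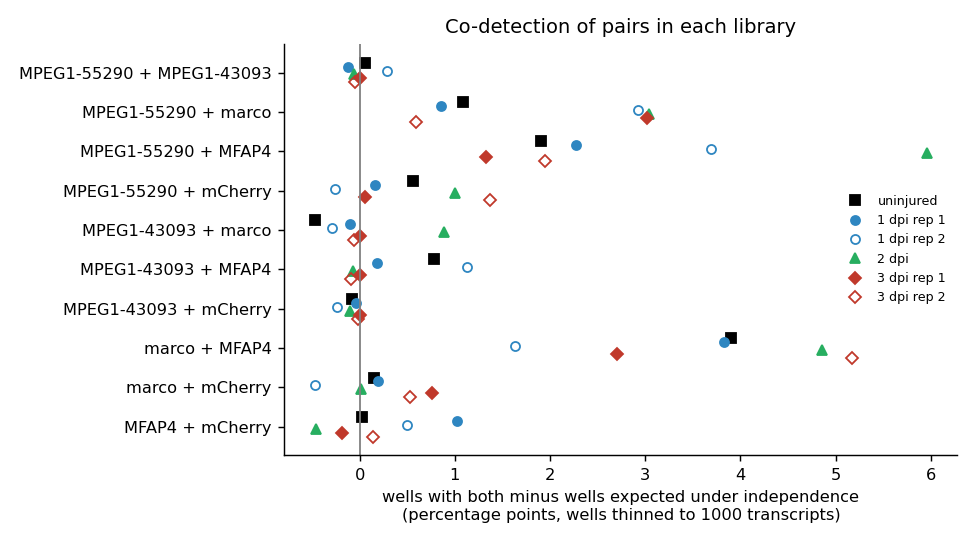
Wells that hold both rows of a pair minus the share that independence within the library gives, in percentage points, at 1000 transcripts per well; each symbol is 1 library and the vertical line marks no excess. All 6 libraries lie above 0 for the pairs among the abundant MPEG1 copy, marco and MFAP4, and the pairs with the sparse MPEG1 copy or the reporter have lower means but reach 1.36 points in single libraries, above the lowest point of the abundant copy with marco, 0.596.

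Which genes occurred in the same wells can also be read at full depth. Of 1008 wells with the abundant MPEG1 copy, 817 (81.1%) also held MFAP4, 653 (64.8%) marco and 330 (32.7%) the reporter. Of 109 wells with the sparse copy, 95 (87.2%) held the abundant copy and 104 (95.4%) held MFAP4. None of those 109 was a granulocyte well. Among all 1820 wells, 1008 held the abundant copy, 1137 MFAP4, 842 marco and 385 the reporter. Wells with the sparse copy were deeper, with a median total of 17310.5 against 4659 in the uninjured library and 13346 against 10308.5 at 2 dpi. At equal depth its excess with the abundant copy was 0.02 points, so these full-depth shares are not read as co-expression. The 385 wells with a reporter transcript held the abundant copy in 330 (85.7%), MFAP4 in 306 (79.5%) and marco in 263 (68.3%).

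Wells with a reporter transcript were compared with the other wells of their library, since the sort had required the protein of both. They were the deeper ones, with median totals of 15158.5 against 4249 uninjured, 6910.5 against 2371 and 10897 against 5088 at 1 dpi, 15530 against 8828 at 2 dpi, then 6701 against 3173 and 5551 against 3398 at 3 dpi. They were assigned before thinning and compared after it. marco was found in 31.5% against 21.3% of uninjured wells, in 29.6% against 26.2% and 26.0% against 20.2% at 1 dpi, in 24.3% against 19.4% at 2 dpi, then in 50% against 18.9% and 30.0% against 16.9% at 3 dpi. The marco share was higher in the reporter-positive wells of 6 of 6 libraries. That of the abundant MPEG1 copy was too, except in replicate 2 of 1 dpi (32.5% against 36.1%). For MFAP4 the uninjured library was the exception (42.6% against 45.4%). Summed marco counts were higher by 0.60 on the log2 scale (SE 0.18, edgeR adjusted p = 0.0348).

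That made 1 of the 3 marker genes that passed the filter, where 4.52% of 1372 genes were called, 0.802% higher and 3.72% lower. The abundant MPEG1 copy differed by 0.22 (SE 0.18, adjusted p = 0.575) and MFAP4 by 0.35 (SE 0.13, adjusted p = 0.107). Without granulocyte wells the marco difference was 0.40 (adjusted p = 0.332), and leaving out single libraries gave adjusted p-values of 0.0318 to 0.223. Granulocyte markers moved with this split, as MMP9 (-1.94), mmp13a (-1.82) and srgn (-0.68) were lower in reporter-positive wells, 3 of 4 tested, while 0 of 18 macrophage markers were called.

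The gene table held 3 identifiers named MPEG1 and 15 named as mfap4 genes, of which 3 and 13 were in the files. The third MPEG1 row, ENSDARG00000078569, had 5 transcripts in all. In the RefSeq table, which follows another assembly, the 13 numbered mfap4 genes lie on 1 chromosome. A second MFAP4 row, ENSDARG00000088745, was nearly as abundant as the first, with 12423 against 13421 transcripts. It reached 599 CPM uninjured, 1308 and 1033 at 1 dpi, 671 at 2 dpi, then 329 and 276 at 3 dpi. The 2 rows thus changed places: per transcript of the first, the second gave 1.71 uninjured, 1.07 and 0.853 at 1 dpi, and 0.577, 0.591 and 0.525 later.

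From 1 to 3 dpi this second row fell, with a log2 change of -1.98 (SE 0.56, edgeR adjusted p = 0.0185). That call was lost in a fit of only the 1 and 3 dpi libraries, which called no gene. In granulocyte wells the row was lower by 3.73 (SE 0.35, edgeR adjusted p = 1.86e-24), where 46.6% of tested genes were called. At equal depth it was in 0% to 8.70% of granulocyte wells and in 19.6% to 55.7% of other wells. It passed the filter through those other wells, so nothing is read from that p-value. The 2 rows were found together in 33.0% of uninjured wells at equal depth, against 24.6% under independence, and in 10% against 4.43% in replicate 2 of 3 dpi. The second row was also tied to marco in these wells. It was found in 89.7% of the uninjured wells with marco and 44.2% of those without, in 70.8% against 42.8% and 59.1% against 38.2% at 1 dpi, in 52.7% against 20.1% at 2 dpi, then in 41.8% against 11.7% and 35.7% against 11.5% at 3 dpi.

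**Figure D5:**
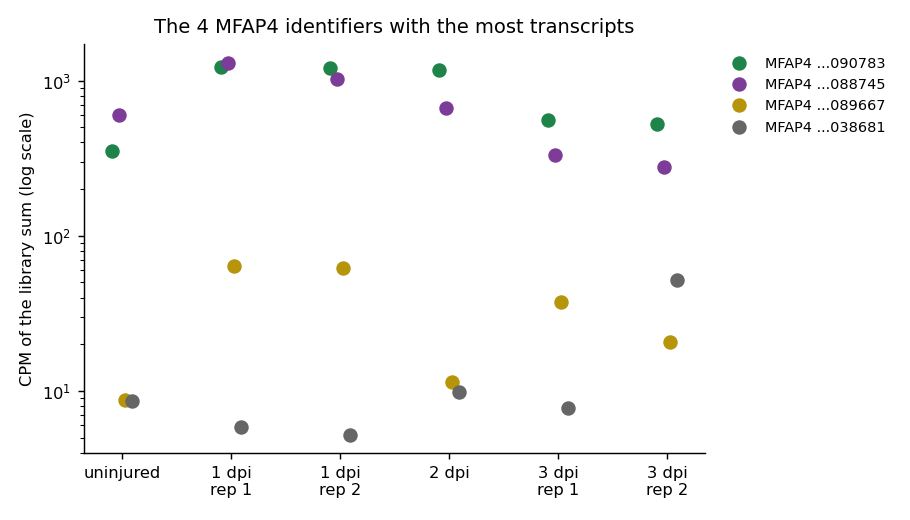
Level of the 4 MFAP4 identifiers with the most transcripts in each library, in CPM on a log axis; each point is 1 library. The second row (ENSDARG00000088745) lies above the first in the uninjured library and in replicate 1 of 1 dpi and below it in the other 4 libraries.

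The remaining MFAP4 rows were far lower. ENSDARG00000089667 stood at 63.9 and 61.9 CPM at 1 dpi and at 8.75 to 37.5 CPM elsewhere. ENSDARG00000038681 stood at 5.21 to 9.85 CPM in 5 libraries and at 52.1 in replicate 2 of 3 dpi, so its 3 dpi replicates disagreed. Of 9 further mfap rows tested between 3 and 1 dpi, 1 was called, the second MFAP4 row, a share near the 9.02% of all tested genes. Of the perforin genes, prf1.6 and prf1.9 were tested and had positive log2 changes of 3.4 and 2.60 that did not pass (edgeR adjusted p = 0.0831 and 0.0676). The change of prf1.6 rests on 1 and 2 transcripts at 1 dpi and on 3 and 32 at 3 dpi. For prf1.9 these were 4 and 5, then 11 and 47. Most transcripts of both genes at 3 dpi thus came from replicate 2. Reads of close copies could again fall on either row.

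Other receptors and regulators on the lists were read in the same fit, which sums over all cells of a library. Of 9 scavenger and clearance receptors tested besides marco, 1 was called between 3 and 1 dpi, near the 9.02% of all tested genes. This was scara5, a ferritin receptor in mammals, higher by 2.62 (SE 0.67, edgeR adjusted p = 0.00929). Fibroblast markers summed in the same libraries to 41.8 and 12.7 CPM at 1 dpi and to 727 and 243 CPM at 3 dpi. Which cells held scara5 was not tested. Of the 7 transcription factors 0 were called, and the smallest p belonged to irf1b (-1.12, adjusted p = 0.318). Of 25 macrophage markers tested, 3 were higher, 2 lower and 20 not called (median 0.11, against 0.28 over all genes, of which 5.55% were higher and 3.47% lower). The invariant chain genes cd74a (3.13) and cd74b (2.64) and the membrane gene ms4a17a.11 (2.29) were the higher ones, and the galectin lgals9l1 (-2.97) was the lower one with the smallest p.

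The genes whose levels most resembled each marker across wells were ranked by the mean of the within-library Pearson correlation at equal depth, over 6 libraries and 1824 candidate genes, as a description. Wells of a library share plate and depth, and the correlations were weak. For the abundant MPEG1 copy they were ctsl.1 (a lysosomal cathepsin, mean r 0.245), tspan36 (0.243), PSAP (the saposin precursor, 0.231), the unnamed ENSDARG00000058941 (0.212) and ccl34b.1 (0.207). MFAP4 came 34th for it and marco 57th, and without granulocyte wells they came 83rd and 96th, with mean r of 0.0891 and 0.0833. For marco they were c1ql1 (0.322), olmf4l1 (0.318), the second MFAP4 row (0.313), the unnamed ENSDARG00000086947 (0.267) and FGL2 (0.242). For MFAP4 they were ENSDARG00000086947 (0.350), tspan36 (0.347), olmf4l1 (0.333), fthl27 (a ferritin heavy chain gene, 0.331) and c1ql1 (0.314). The lists of marco and MFAP4 thus shared 3 of 5 genes, and that of MPEG1 shared tspan36 with MFAP4 and 0 with marco. Just below this cut, tspan36 came 7th for marco (0.237). Without granulocyte wells the first 5 genes of marco and MFAP4 shared only olmf4l1 and ENSDARG00000086947. No gene exceeded 0.137 for the sparse copy or 0.116 for the reporter.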

How the data were processed

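The deposited files hold expected counts: per gene and well, the authors' number of transcripts after a correction for identifier collisions. Per the submitters' processing notes, BWA and the Zv9 build were used. The sources used here do not give the counter or the annotation, and no coordinates are printed. Counts were rounded to whole numbers, spike-ins were left out, and wells with at least 500 transcripts were kept. Symbols came from a table of Ensembl identifiers. The symbols csf1ra, spi1b, mrc1a and mpx were not in it, so no row was analysed under those names. Rows it names SPI1 and EPX were analysed. Whether they are spi1b and mpx was not settled. The members, lists, tests and named genes were chosen with earlier results of these data known. The named genes are the 4 markers, the reporter, the 5 genes most like each marker across wells, and up to 4 genes per list with the smallest p.

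Libraries were summed and tested with edgeR 4.0.16 in R 4.3.3 (TMM scaling, filterByExpr, robust quasi-likelihood, Benjamini-Hochberg adjustment, threshold 0.05) in 1 fit of 6 libraries with 2 residual degrees of freedom. The spread of the uninjured and 2 dpi groups, with 1 library each, was taken from the 1 and 3 dpi groups. Within-library splits used wells thinned to 1000 transcripts with the library as a block. The granulocyte split took the 5 libraries with at least 10 such wells and left out npsn and EPX, and the reporter split left out mCherry_cds. Shares of wells were tested by exact permutation over libraries, two-sided. The chi-square between replicates, divided by its degrees of freedom, was 11.7 at 1 dpi and 19.1 at 3 dpi, so replicates were distinct libraries. On simulated counts for the comparison of 3 with 1 dpi, over 12576 genes, 17.7% of genes changed 4-fold and 86.6% of genes changed 16-fold were called. For the granulocyte split, over 1342 genes, 77.6% of genes changed 2-fold were called, and for the reporter split, over 1306 genes, 90.4%.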

Additional observations from a re-analysis of the deposited data

How the results depend on the processing

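Across the alternatives, 515 values were unchanged. For single rows and pairs this means the same direction and side of the threshold, and for counts of genes called a count near the main one. Of the other values, 28 reversed direction, 22 lost a call, 23 gained one, and 41 counts of genes called moved further. Tests on shares of wells could not pass with so few libraries, so their side of the threshold was set in advance. The cause was not tested unless stated. Few transcripts of the sparse MPEG1 copy and few libraries per group limit the time comparisons.

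For 3 minus 1 dpi, 1254 genes were called, against 664 with RLE size factors, 73 with library size alone, 616 with DESeq2, 527 after thinning and 0 in edgeR with only the 4 libraries of these groups, where 2556 genes had an unadjusted p under 0.05. The sparse MPEG1 copy and the reporter lost their call with library size alone (-3.07 and -1.66), after thinning (-2.97 and -1.14) and with the 4 libraries (-2.88 and -1.53). For 2 minus 1 dpi, 22 genes were called, against 6 with library size alone, and marco turned to 0.0167 with library size alone, 0.0296 with no filter, 0.10 without granulocyte wells and 0.0035 without wells over 50000 transcripts. MFAP4 turned to 0.0303 without granulocyte wells. For 3 minus 2 dpi, 38 became 10 with RLE, 6 with library size alone, 74 with no filter, 25 with wells of at least 1000 transcripts and 20 after thinning, where marco turned to 0.21.

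For injured minus uninjured, 2316 became 1146 with DESeq2, 479 without wells over 50000 transcripts and 143 after thinning. Without those wells the abundant and sparse MPEG1 copies, marco and MFAP4 turned to -0.12, -0.60, -0.21 and -0.0277, and after thinning to -0.40, -1.25, -0.22 and -0.14, while the reporter lost its call (0.80 and 0.22). The abundant copy and MFAP4 were called with library size alone (1.34 and 1.38), and MFAP4 with DESeq2 (1.39). The granulocyte split gave 671 calls, 1054 with no filter and 1881 without thinning. The reporter split gave 62, 124 with no filter, 28 with DESeq2 and 29 without granulocyte wells. There marco lost its call with no filter (0.36), with DESeq2 (0.63), without thinning (0.63) and without granulocyte wells (0.40), the abundant copy gained one without thinning (0.61), and MFAP4 with library size alone (0.40).

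Without thinning, co-detection passed for every pair: 1.24, 9.0, 8.31 and 5.09 points for the abundant copy with the sparse copy, marco, MFAP4 and the reporter, 1.41, 1.42 and 0.99 for the sparse copy with marco, MFAP4 and the reporter, 8.75 and 4.17 for marco with MFAP4 and the reporter, and 2.56 for MFAP4 with the reporter. The sparse copy with the reporter turned to 0.10 at 2000 transcripts, and without granulocyte wells the pairs of both MPEG1 copies and of MFAP4 with the reporter turned to -0.0369 and -0.11.

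The replicate numbers do not pair libraries by the labels, and with 2 pairs (deviations correlated at r = 0.240 over 13901 genes) they share only a number. With the replicate block, 1966, 57 and 224 genes were called for 3 minus 1, 2 minus 1 and 3 minus 2 dpi. MFAP4 was then called for 3 minus 1 dpi (-1.22, edgeR adjusted p = 0.0381). The sparse copy was called for 3 minus 2 dpi (-3.65, edgeR adjusted p = 0.0149), where it passed the filter through libraries other than 3 dpi.

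Leaving out 1 library at a time, the counts ranged from 14 (without replicate 2 of 1 dpi) to 3851 (without replicate 1 of 3 dpi) for 3 minus 1 dpi, from 10 to 101 for 2 minus 1 dpi, from 9 to 1210 for 3 minus 2 dpi, from 1393 to 4057 for injured minus uninjured, and from 30 to 69 for the reporter split. A group left with 1 library was assumed to vary like the others. Log2 changes from 1 to 3 dpi ranged from -1.35 to -0.86 for the abundant copy, -3.59 to -2.44 for the sparse copy, -0.81 to -0.0166 for marco, -1.50 to -0.94 for MFAP4 and -2.05 to -1.55 for the reporter. For 2 minus 1 dpi the sparse copy ranged from -0.17 to 0.91 and marco from -0.14 to 0.10. For 3 minus 2 dpi the sparse copy ranged from -3.84 to -2.94, marco from -0.80 to -0.0245 and the abundant copy from -0.83 to -0.36. Injured minus uninjured ranged from 1.23 to 1.57 for the abundant copy, -0.0781 to 0.86 for the sparse copy, 1.08 to 1.52 for marco, 1.18 to 1.63 for MFAP4 and 2.25 to 2.34 for the reporter. Fits that leave 1 library at 1 or 3 dpi shifted calls over all genes, so no call of a single gene is read from them. marco in the reporter split ranged from 0.44 to 0.70, and co-detection of the sparse copy ranged from -0.0352 to 0.0469 points with the abundant copy and from -0.19 to 0.0855 with marco.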
